A study of Dicentrarchus labrax with 23 samples.

Results

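The GATA factors 4 and 5 were followed along the intestine of European sea bass (Dicentrarchus labrax) through 3 of the 14147 probes of a custom array. The rule that picks them uses their names and no signal, and they are GATA-binding factor 5-A (CUST_L12_85179, called gata5 here), transcription factor GATA-4-like (CUST_L1_62752) and transcription factor GATA-4 (CUST_L1_39434). The names stem from a supplementary gene list of the study that holds only genes the study had called between the anterior and middle segments and the posterior one, so the calls for that contrast are a description here and no independent support. All other probes named below stem from the same list, so their calls for that contrast are no independent support either. No calls between the anterior and the middle segment entered that list. The study pooled these segments, however, after its tests had found no gene that differed between them. The list is thus not fully independent of that contrast.

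The arrays measured Cy3-labelled RNA from single intestinal segments of untreated, farmed fish of Mediterranean origin that were fed a commercial diet and fasted overnight. Of the 23 arrays, 8 held the anterior intestine (AI, cut just behind the pyloric caeca), 7 the middle intestine (MI) and 8 the posterior intestine (PI, with the rectum). AI and MI together are called AI-MI, 15 arrays, which the tests took as separate samples. The sources do not say whether the same fish gave several arrays. Each segment was ground as a whole tissue, and the labels give no age, sex or strain.

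GATA factors are zinc finger proteins that bind the DNA motif GATA. GATA-4, GATA-5 and GATA-6 form the subgroup that acts in endoderm and heart, and in zebrafish gata5 is needed for the formation of both tissues. In mice, GATA-4 is made in the enterocytes of the proximal small intestine and not of the distal ileum. When it is deleted there, genes of the ileum such as the bile acid transporter and the ileal bile acid-binding protein are switched on in the jejunum, while genes of the jejunum such as lactase fall.

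All values are the log2 of the processed signal minus the 75th percentile of the array, so that 0 is the 75th percentile and each unit is a doubling. The 75th percentile lay between 388 and 1183 intensity units and 82.8 to 93.1% of the probes of an array were well above background. Groups were compared with limma, two-sided, over the 12894 probes whose signal exceeded the background limit on 7 or more of the 23 arrays, with Benjamini-Hochberg adjustment over all of them and a threshold of 0.05. All 3 GATA probes were among these, but both GATA-4 probes passed through their AI and MI arrays alone. Single arrays stood apart in ways that touch the results. AI replicate 2 and MI replicate 3 had 3.23 and 2.73 for the ileal sodium/bile acid cotransporter (L2_88118), the carrier that takes up bile acids in the ileum, at or near the PI range of 2.76 to 3.93, whereas all other AI-MI arrays had -0.27 or less. PI replicates 7 and 8 had 4.03 and 3.37 for lactase-phlorizin hydrolase (L12_89397), the enzyme that splits lactose, whereas the other PI arrays had 0.01 or less and the AI-MI arrays 6.82 to 7.84. The comparisons that rest on these arrays are given with and without them, a choice of arrays made after their values had been seen.

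The signal of gata5 was steady over AI and MI and lower in PI. In AI its log2 signal was 5.09, 5.04, 4.88, 5.08, 5.14, 4.59, 5.60 and 5.47 in replicates 1 to 8. In MI it was 5.34, 5.24, 4.59, 5.48, 5.23, 5.16 and 5.23 in replicates 1 to 7. No AI-MI array was thus more than about a log2 unit away from any other, and AI and MI overlapped throughout. In PI it was -0.77, -0.04, -1.28, -1.09, -0.07, -1.80, 3.40 and 2.08 in replicates 1 to 8. PI replicates 7 and 8 stood above the other 6 PI arrays and below every AI-MI array, with processed signals of 9917 and 4913 intensity units against 250 to 635 in the other PI arrays and 13113 to 34871 in AI-MI.

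For gata5 AI had a mean of 5.11 ± 0.32 (SD, n = 8), MI of 5.18 ± 0.28 (SD, n = 7) and PI of 0.05 ± 1.79 (SD, n = 8). The difference between AI-MI and PI was 5.09 ± 0.44 log2 units (SE), 34.1-fold higher in AI-MI (limma, adjusted p = 1.3e-09). The lowest of the 15 AI-MI arrays exceeded the highest of the 8 PI arrays, which was the case for 4.03% of all tested probes. Without PI replicates 7 and 8 the PI mean was -0.84 ± 0.69 (SD, n = 6) and the fold 63.4. In bulk tissue, fewer cells that express a gene and less RNA per cell cannot be told apart.

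Both GATA-4 probes were measured in every AI and MI array and in no PI array. The log2 signal of GATA-4-like in AI was -1.27, -6.29, -2.10, -1.44, -1.26, -1.59, -1.16 and -0.73 in replicates 1 to 8. In MI it was -2.84, -2.07, -5.59, -2.66, -1.41, -3.55 and -1.27 in replicates 1 to 7. AI replicate 2 and MI replicate 3 were far below the other arrays of their segments, by 5.02 and 3.22 log2 units from the median of the others. Their signals, 8.21 and 11.9 intensity units, were close to the lowest well above background on these arrays, 5.44 and 9.59. The size of these drops is therefore unsure. In PI the signals of GATA-4-like were 1.08 to 3.37 intensity units, well above background on 0 of 8 arrays, and values below that limit have no order among themselves.

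GATA-4 gave the same picture on its own probe. In AI its log2 signal was -2.21, -6.09, -2.98, -2.20, -1.95, -2.51, -1.96 and -2.06 in replicates 1 to 8. In MI it was -3.24, -2.94, -5.44, -3.59, -2.36, -4.11 and -1.93 in replicates 1 to 7. AI replicate 2 and MI replicate 3 were again the lowest of their segments, 3.89 and 2.35 log2 units below the median of the others, and MI replicate 6 was next in MI. With 9.41 and 13.2 intensity units the former arrays were again close to the background limit. All 8 PI arrays had 1.13 to 4.71 intensity units, which was not well above background.

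**Figure D1:**
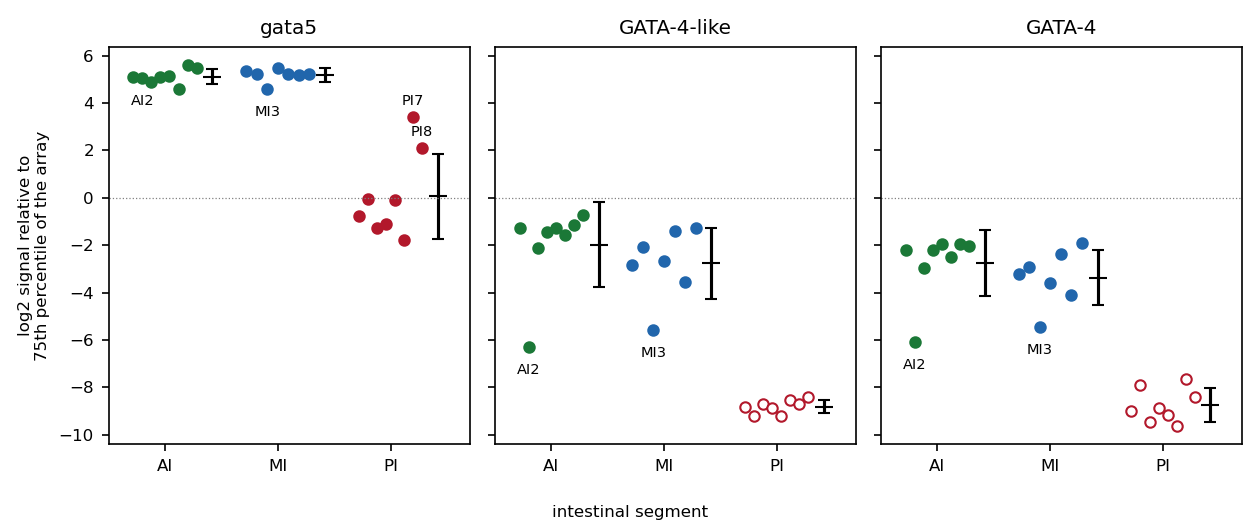
Log2 signal of gata5, GATA-4-like and GATA-4, relative to the 75th percentile of each array, by intestinal segment (AI 8, MI 7 and PI 8 arrays). Each point is 1 array, open points were not well above background, and the bars are the mean ± SD. For gata5, PI replicates 7 and 8 (3.40 and 2.08) lie between the other PI arrays and AI-MI. For both GATA-4 probes, AI replicate 2 and MI replicate 3 lie between the PI arrays and the other AI-MI arrays, close to the background limit.

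Because the PI signals of both GATA-4 probes were at background, their fold changes are lower bounds, taken against the lowest signal that was well above background on each PI array. That signal is the lowest of any probe, not a limit measured for the GATA-4 probes. All such bounds here hold for the processed signals alone. GATA-4-like was at least 28.5-fold higher in AI-MI, with a mean of -2.35 ± 1.64 (SD, n = 15) against a PI limit of -7.18 on the log2 scale. GATA-4 was at least 17.6-fold higher, with -3.04 ± 1.29 (SD, n = 15) against the same limit. Without AI replicate 2 and MI replicate 3 these bounds were 41.7-fold and 23.6-fold. The fitted differences were called with limma (adjusted p = 1.3e-09 for GATA-4-like and 5.1e-10 for GATA-4). These p-values rest on PI values below the background limit, for probes that passed the filter through AI-MI alone. They are a description and no support. The size of the differences depends on how the background is treated. The differences were 6.47 and 5.72 log2 units as measured, and 2.10 and 1.60 with a normexp background correction and an offset of 50. Under this correction the median difference of all tested probes was 0.13 (0.01 as measured). With that correction the folds were 4.27 and 3.03, smaller than the bounds.

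The 3 GATA probes were thus all higher in AI-MI than in PI, in a comparison where 21.5% of all tested probes were called higher in AI-MI. The pairs of single segments share the PI arrays, so their values stand here side by side. For gata5 the difference was 5.06 ± 0.59 (SE) for AI vs. PI and 5.13 ± 0.63 (SE) for MI vs. PI, and without PI replicates 7 and 8 these became 5.95 and 6.02, or 62.0-fold and 65.1-fold. GATA-4-like was at least 36.8-fold higher in AI and at least 21.2-fold higher in MI than in PI, and GATA-4 at least 21.6-fold and at least 14.0-fold. Without AI replicate 2 the bounds for AI were 56.3-fold for GATA-4-like and 30.1-fold for GATA-4, and without MI replicate 3 those for MI were 29.4-fold and 17.8-fold. With all arrays, each of these differences was called with limma (adjusted p between 8.2e-08 and 1.0e-05), where 20.7% of the probes were called higher in AI and 16.3% higher in MI. For the GATA-4 probes these calls too rest on PI values at background and are a description.

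Each of the 3 slides carried arrays of all segments. Within slide 1, with 3 AI and 2 PI arrays, the AI vs. PI difference of GATA-4-like was 5.80 (limma, adjusted p = 0.112) and that of GATA-4 4.70 (adjusted p = 0.107), AI replicate 2 being 1 of the 3. Within slide 3, which holds PI replicates 6, 7 and 8, gata5 differed by 4.31 for AI vs. PI (adjusted p = 0.116) and by 3.97 for MI vs. PI (adjusted p = 0.220). The direction was the same on all 3 slides.

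Markers of other cell types also differed between AI-MI and PI, all of them named from the study's list of genes called in this contrast. How many genes of each marker list differed is therefore a description. For comparison, the share of all tested probes with a call was 21.5% in favour of AI-MI and 22.6% in favour of PI. All 14 genes of pancreatic acinar cells were higher in AI-MI, and their summed signal, in units of the 75th percentile of the array, was 51.8 to 3715 in AI-MI and 3.57 to 54.6 in PI. These ranges overlapped, with 51.8 in MI replicate 4 and 54.6 in PI replicate 6. The 2 stomach genes pepsin A and gastrin summed to 32.1 to 166 in AI-MI and 0.0199 to 0.494 in PI, with no overlap. Taken probe by probe, 4.03% of all tested probes had such a gap in this direction. All 4 epithelial genes (villin-1, keratin 8, cadherin-1 and cadherin-17) were called higher in AI-MI. The 3 of them with a value on every array, without cadherin-17, summed to 20.5 to 49.8 in AI-MI and 11.7 to 24.1 in PI. The epithelial ranges overlapped too, with 21.6 in AI replicate 7 and 23.8 and 24.1 in PI replicates 7 and 8. The 5 smooth muscle genes and the 3 lymphocyte genes were all higher in PI, with sums of 10.5 to 22.9 and 1.98 to 7.03 there against 3.71 to 12.8 and 0.586 to 3.67 in AI-MI, and the 3 hemoglobins were higher in AI-MI (1.15 to 43.3 against 0.468 to 5.46). None of these lists was tested for a part in the GATA signals.

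Between AI and MI none of the 3 probes was called. The difference of gata5 was -0.07 log2 units (AI minus MI, 95% confidence interval -0.41 to 0.27, limma, adjusted p = 0.893), an interval that lies within a doubling in either direction. For GATA-4-like it was 0.79 (-0.86 to 2.44, adjusted p = 0.713) and for GATA-4 0.63 (-0.67 to 1.93, adjusted p = 0.712), intervals that reach past a doubling. An exact permutation test of each difference over all 6435 splits of the 15 arrays, two-sided, gave p = 0.657 for gata5, 0.383 for GATA-4-like and 0.373 for GATA-4. With limma 0% of all tested probes were called between AI and MI (0 of 12894, against 1638 at an unadjusted p under 0.05).

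The AI and MI difference of the GATA-4 probes moved with AI replicate 2 and MI replicate 3. Without AI replicate 2 alone the differences were 1.41 and 1.10 log2 units, higher in AI. The exact permutation test gave p = 0.0186 for GATA-4-like and 0.0256 for GATA-4. Adjusted over the 3 GATA probes, the exact permutation test gave p = 0.0385 for each, under the threshold. AI replicate 2 was the lowest of AI for both probes, so leaving it out while MI replicate 3 stayed in raised AI over MI. The p-values are not adjusted for this choice of array, so this pass is a description. With both arrays left out the exact permutation test was not run. Limma over all probes did not call either GATA-4 probe (lowest adjusted p over all single arrays left out 0.145 and 0.155). Without MI replicate 3 alone the differences were 0.32 and 0.28. With both left out, AI had -1.36 ± 0.42 (SD, n = 7) and MI -2.30 ± 0.88 (SD, n = 6) for GATA-4-like, a difference of 0.94 (adjusted p = 0.152), and GATA-4 differed by 0.76 (adjusted p = 0.203). The AI and MI arrays overlapped for both probes in each of these settings. For gata5 the order of AI and MI was not fixed, since without AI replicate 6 the difference was 0.0051 and within slide 3 it was 0.34.

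The order of the segments was therefore MI and AI without a difference beyond their spread, then PI, for gata5. For both GATA-4 probes it was AI and MI in no settled order, then PI at background. With all arrays, the AI mean of both probes was above the MI mean, without a called difference.

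The GATA-4 probes followed each other from array to array in AI and MI. By rank gata5 followed them in AI, and no relation with gata5 was called in MI. Between GATA-4-like and GATA-4, Pearson's r over the 7 MI arrays was 0.98 and Spearman's rho 0.96 (exact permutation test, p = 0.000595 and 0.00278, adjusted p = 0.00536 and 0.0163 over 9 relations, 3 of them in PI). Without the 2 arrays farthest from the median r was 0.96. Over the 8 AI arrays r was 0.99 and rho 0.88 (exact permutation test, p = 0.00131 and 0.00724, adjusted p = 0.00592 and 0.0163), and r was 0.87 without AI replicate 2 and 0.63 without AI replicates 2 and 3. The sources used here do not say whether both probes read the same transcript, and the RefSeq annotation of the sea bass lists 1 gata4 gene and 1 gata5 gene. They are for this reason not counted as separate evidence.

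For gata5 with GATA-4-like, r was 0.24 and rho 0.88 over the 8 AI arrays (exact permutation test, p = 0.469 and 0.00724, adjusted p = 0.603 and 0.0163). For gata5 with GATA-4 they were 0.25 and 0.81 (exact permutation test, p = 0.462 and 0.0218, adjusted p = 0.603 and 0.0392). The ranks thus followed each other in AI within a gata5 range of about a log2 unit, whereas AI replicate 2, in the middle of the gata5 range, lowered r. Without that array r was 0.72 with GATA-4-like and 0.70 with GATA-4. Without AI replicates 6 and 7, farthest from the gata5 median, r was 0.38 and 0.34. Over the 7 MI arrays r was 0.76 with GATA-4-like and 0.68 with GATA-4 (exact permutation test, p = 0.0871 and 0.116, adjusted p = 0.196 and 0.209), and rho was 0.32 and 0.29 (exact permutation test, p = 0.498 and 0.556). Without MI replicate 3, lowest for all 3 probes, r in MI was -0.13 and -0.20. Whether the relation of gata5 with the GATA-4 probes differed between AI and MI was not tested. In AI replicate 2, gata5 was 0.05 log2 units below the median of the other AI arrays, and in MI replicate 3 it was 0.64 units below that of the other MI arrays. In PI no relation is given, as the GATA-4 signals were at background and gata5 fell into 2 sets of arrays.

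**Figure D2:**
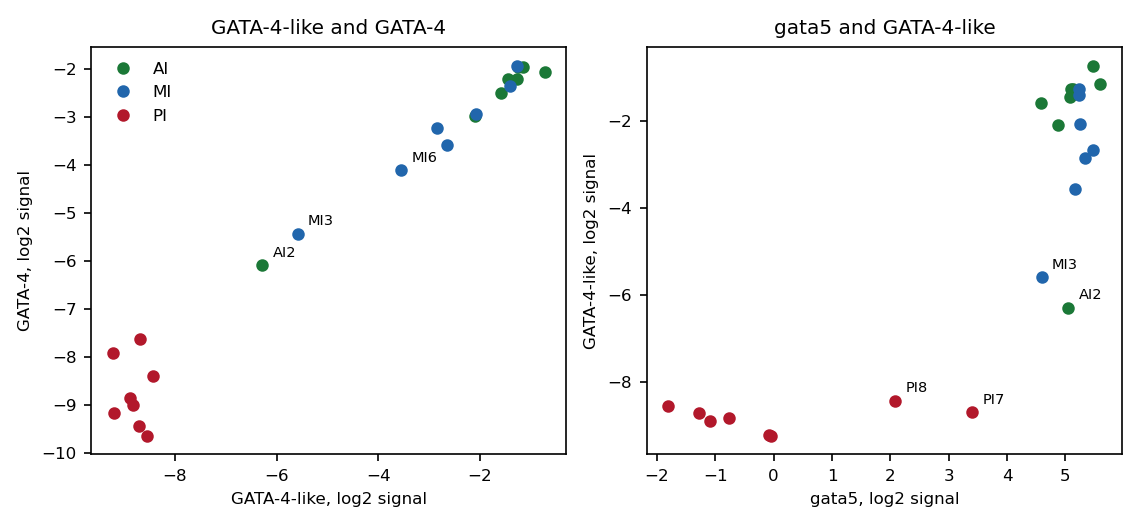
Log2 signals of GATA-4-like against GATA-4 (left) and of gata5 against GATA-4-like (right), 1 point per array, colours by segment. AI replicate 2 and MI replicate 3 are low for both GATA-4 probes but have gata5 signals of 5.04 and 4.59, and PI replicates 7 and 8 have raised gata5 signals while GATA-4-like is at background, as on all PI arrays.

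The ileal genes of bile acid uptake ran opposite to the GATA-4 probes over the MI arrays, and no such relation was called in AI. These are the ileal sodium/bile acid cotransporter and gastrotropin (L2_73008), which binds bile acids inside ileal enterocytes. In MI replicates 1 to 7 the cotransporter had log2 signals of -0.52, -4.79, 2.73, -0.46, -3.33, -0.27 and -6.18. MI replicate 3, lowest for GATA-4, was the highest and MI replicate 7, highest for GATA-4, was the lowest and not well above background. Gastrotropin had 8.60, 6.77, 9.67, 9.16, 5.41, 9.23 and 3.72 on the same arrays, the exact reverse of the order of GATA-4. That order of the MI arrays was not particular to GATA-4. WD repeat-containing protein 81 and peptide Y, genes picked further on by their r with the GATA-4 probes, had the same order. The share of all tested probes that ran opposite to the ileal genes in MI was not computed. Whether the relation is specific to GATA-4 was therefore not tested.

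These relations were chosen after the values had been seen, and 12 of them were computed (3 GATA probes, 2 genes, AI and MI). In MI, GATA-4 had r = -0.92 and rho = -0.96 with the cotransporter (exact permutation test, p = 0.00397 and 0.00278, adjusted p = 0.0238 and 0.0111 over 12 relations). With gastrotropin it had r = -0.87 and rho = -1 (p = 0.00933 and 0.000397, adjusted p = 0.0373 and 0.00476, exact permutation test). GATA-4-like had r = -0.90 with the cotransporter and -0.81 with gastrotropin (exact permutation test, adjusted p = 0.0238 and 0.0673), and rho of -0.93 and -0.96 (adjusted p = 0.0202 and 0.0111, exact permutation test). Thus r with gastrotropin missed the threshold for GATA-4-like while its rho passed it. Without the 2 arrays farthest from the median all 4 values of r in MI stayed between -0.93 and -0.74. For gata5 r was -0.49 and -0.25 in MI (exact permutation test, adjusted p = 0.313 and 0.627).

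None of the 6 relations in AI was called, by r or by rho. For the cotransporter rho was -0.19 with GATA-4-like and -0.10 with GATA-4 (exact permutation test, adjusted p = 0.797 and 0.840), and for gastrotropin it was -0.64 and -0.71 (adjusted p = 0.165 and 0.138, exact permutation test). For gata5 rho was -0.10 with the cotransporter and -0.69 with gastrotropin (exact permutation test, adjusted p = 0.840 and 0.139). Over all 8 AI arrays r for the cotransporter was -0.92 with both GATA-4 probes (exact permutation test, adjusted p = 0.0974 for each). For gastrotropin it was -0.76 with GATA-4-like and -0.79 with GATA-4 (exact permutation test, adjusted p = 0.0974 and 0.0802). AI replicate 2 formed a set of its own and weighs heavily in these values. Without AI replicates 2 and 3 r for the cotransporter was -0.29 with GATA-4-like and -0.36 with GATA-4, and for gastrotropin -0.31 and -0.80. Whether these relations differed between AI and MI was not tested. AI replicate 2 had 3.23 for the cotransporter and 9.56 for gastrotropin, against -8.91 to -4.55 and -5.42 to 4.45 in the other AI arrays. In these 7 arrays GATA-4-like stayed between -2.10 and -0.73 and GATA-4 between -2.98 and -1.95. PI had 2.76 to 3.93 for the cotransporter and 8.91 to 9.78 for gastrotropin. AI replicate 2 and MI replicate 3 thus had ileal genes at the PI level and GATA-4 close to the background limit, below the other AI-MI arrays. Their gata5 and lactase (6.85 and 6.82) were at or just below the level of the other AI-MI arrays.

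**Figure D3:**
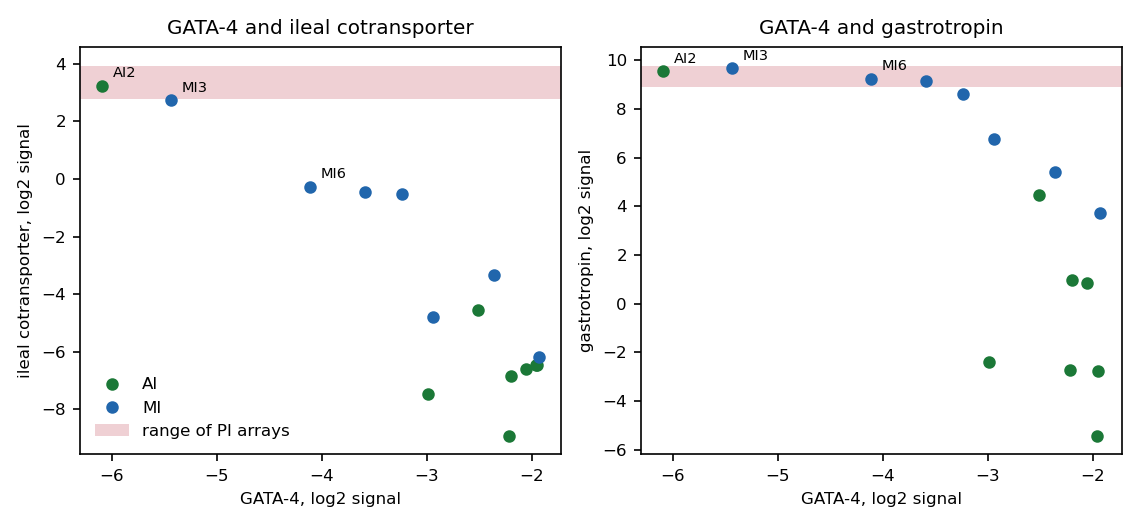
Log2 signal of GATA-4 against that of the ileal sodium/bile acid cotransporter (left) and gastrotropin (right) in the 8 AI and 7 MI arrays. The band is the range of the 8 PI arrays, 2.76 to 3.93 and 8.91 to 9.78. The MI arrays fall from upper left to lower right, and AI replicate 2 lies apart from the other AI arrays.

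Some of the other marker lists were shifted toward PI in these 2 arrays and others were not. The mean log2 signal of the pancreatic genes was 4.91 in AI replicate 2 and 5.10 in MI replicate 3, within the range of -1.37 to 7.41 of the other AI-MI arrays, and that of the epithelial genes was 1.91 and 1.63, within and just below their range (1.68 to 2.31). The stomach genes had 2.33 and 2.91, below the 3.44 to 5.30 of the other AI-MI arrays. The lymphocyte genes had 0.10 in MI replicate 3, above the -2.63 to -1.17 of the others, and -1.51 in AI replicate 2, the highest of AI but within that range. The smooth muscle genes had 0.64 in AI replicate 2, the highest of AI, and 0.47 in MI replicate 3, both within the -0.72 to 1.09 of the other AI-MI arrays. The 10 endoderm and enterocyte transcription factors described further on had 0.32 in AI replicate 2, the lowest of AI-MI, and 0.38 in MI replicate 3, against 0.34 to 0.89. Their part in the GATA-4 signals was not tested.

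Some absorptive genes of the enterocyte, but not all, were high in PI replicates 7 and 8, the PI arrays with the raised gata5 signal. Lactase and sucrase-isomaltase are known in mammals as genes with GATA sites in their promoters. The list held these enzymes, the intestinal and liver-type fatty acid-binding proteins and apolipoproteins A-I, A-IV and A-IV3. All 7 were called higher in AI-MI, a direction called for 21.5% of all tested probes. The 7 genes had a median difference of 3.89 log2 units. They were named from the study's list of called genes, so these calls and this median are a description. The liver-type protein had values on 11 of the 15 AI-MI arrays, as outlier spots were dropped. The mean log2 signal of the 6 with a value on every array, without the liver-type protein, was 2.59 and 2.17 in PI replicates 7 and 8, -1.09 to 0.47 in the other PI arrays and 3.75 to 4.84 in AI-MI. The rise was largest for lactase and apolipoprotein A-I. Apolipoprotein A-I (L1_22120), a protein of lipoprotein particles, had -1.07 and -1.22 in PI replicates 7 and 8 against -9.32 to -3.93 in the other PI arrays, of which only replicate 2 was well above background. Intestinal fatty acid-binding protein had 5.50 and 5.81 against 2.98 to 4.96, and apolipoprotein A-IV3 had -2.35 and -2.86 against -4.97 to -3.45. The other genes of the list were not set apart in both arrays. Sucrase-isomaltase had 2.23 and 1.78 against 0.59 to 1.92, apolipoprotein A-IV 7.19 and 6.17 against 5.02 to 7.36, and the liver-type protein 1.75 and -3.66 against -4.42 to 0.97.

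The cotransporter and gastrotropin did not set PI replicates 7 and 8 apart, with 3.07 and 3.93 for the former and 9.12 and 9.01 for the latter, within or near the range of the other PI arrays (2.76 to 3.62 and 8.91 to 9.78). The epithelial genes had means of 1.43 and 1.35 there, above the 0.68 to 1.17 of the other PI arrays, the endoderm and enterocyte transcription factors -0.54 and -0.39, above the -1.52 to -0.78 of the others, and the lymphocyte genes -0.92 and -0.56, below the -0.30 to 0.77 of the others. The smooth muscle genes had 0.77 and 1.04, below or at the lower end of the 0.93 to 1.97 of the others. The stomach genes had -4.95 and -2.79, above the -7.31 to -5.34 of the other PI arrays, and the pancreatic genes -4.40 and -4.12, within or near the -4.19 to 0.98 of the others. The part of these differences in the gata5 signal was not tested. Both arrays lay on slide 3, as did PI replicate 6, which had the lowest gata5 signal of all, -1.80.

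The other GATA probes with a name were 2 for GATA-6, the third endodermal GATA factor, which in mammals acts in the crypts and throughout the gut. GATA-binding factor 6-A (L12_89553) had medians of 1.60 in AI (range 1.18 to 1.71), 1.31 in MI (1.01 to 1.66) and -0.61 in PI (-1.07 to 0.12), a difference of 2.02 ± 0.12 log2 units (SE) between AI-MI and PI (limma, adjusted p = 3.7e-12). GATA-binding factor 6-A-like (L12_38171) differed by 1.45 ± 0.15 (SE, adjusted p = 2.7e-08, limma). PI thus kept GATA-6 signals well above background on all 8 arrays, where both GATA-4 probes were not measured on any. GATA-6-A was lowest in AI in replicate 2 and in MI in replicate 3, at 1.18 and 1.01, 0.46 and 0.42 log2 units below the median of the others. It was highest in PI in replicates 7 and 8, 0.75 and 0.43 log2 units above the median of the others, as gata5 was. Over the deviations from the segment means in the 23 arrays, r of GATA-6-A was 0.77 with gata5, 0.42 with GATA-4-like and 0.58 with GATA-4, as a description. The values with the GATA-4 probes include the PI arrays, where these probes were at background. ZFPM1 (L2_41725), a zinc finger cofactor of GATA proteins, was 1.22 ± 0.14 log2 units (SE) higher in AI-MI (limma, adjusted p = 1.5e-07). All 3 of these probes had every AI-MI array above every PI array, as had 4.03% of all tested probes. None was called between AI and MI, where 0% of all tested probes were called.

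Among 10 other transcription factors of the endoderm and the enterocyte, 9 were called higher in AI-MI, a direction called for 21.5% of all tested probes. The remaining 1, SOX-9, which acts in crypt progenitors, was called higher in PI, a direction called for 22.6%. The median difference of the 10 was 1.12 log2 units, and all 10 were named from the study's list of called genes. Hepatocyte nuclear factor 4-beta (L12_85830), of a family of nuclear receptors that drive enterocyte genes, differed by 6.52 ± 0.32 (SE, limma, adjusted p = 3.9e-14). It was -1.66 and -1.25 in PI replicates 7 and 8 against -4.16 to -2.66 in the other PI arrays. Its relatives 4-alpha and 4-gamma differed by 1.04 and 1.92, CDX-1, a homeobox factor of intestinal identity, by 1.20, and NR5A2, a nuclear receptor of crypts, pancreas and liver, by 1.62 log2 units. None of the 10 was called between AI and MI with limma, as was the case for all tested probes. Their lowest adjusted p with limma was 0.216, for pancreas/duodenum homeobox protein 1-like.

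**Figure D4:**
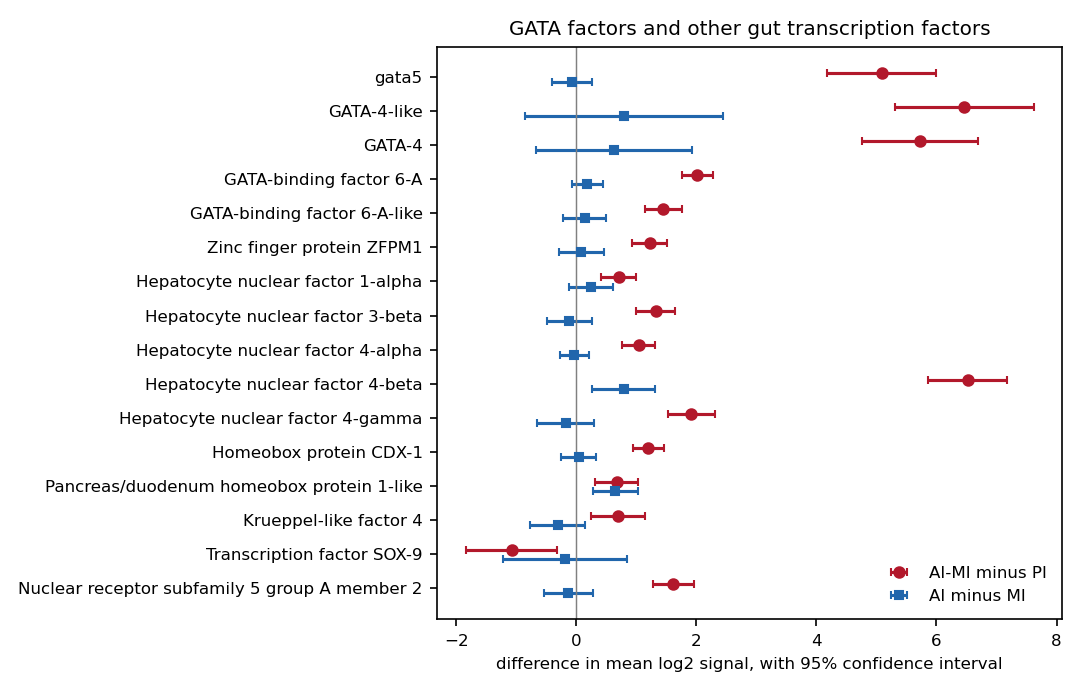
Difference in mean log2 signal for the 3 GATA probes, the other GATA factors with the cofactor ZFPM1, and 10 other gut transcription factors. Circles are AI-MI minus PI, squares AI minus MI, and bars are 95% confidence intervals from limma. For GATA-4-like and GATA-4 the PI signal was at background, so their circles depend on the background correction. As measured, the differences of gata5 (5.09), both GATA-4 probes (6.47 and 5.72) and hepatocyte nuclear factor 4-beta (6.52) are larger than those of the other factors, which are 2.02 or less. With the normexp correction, not drawn here, the differences of GATA-4-like and GATA-4 were 2.10 and 1.60.

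The genes most like each GATA probe were taken from the named probes by Pearson's r over the 23 arrays, as a description in which the segments themselves drive most of r. For gata5 they were apolipoprotein B-100-like (L2_28353, r = 0.99), apolipoprotein B-100 (L12_89941, 0.99), gelsolin (L12_88843, 0.99), long-chain-fatty-acid-CoA ligase 5 (L12_88065, 0.99) and ectonucleotide pyrophosphatase/phosphodiesterase family member 7 (L12_88885, 0.99). Apolipoprotein B is the scaffold of chylomicrons, ligase 5 activates fatty acids, and the pyrophosphatase digests sphingomyelin in the gut lumen. The same 5 led when r was taken over the deviations from the segment means, at 0.92 to 0.94, and ranked 1 to 5 among 12774 probes. All 5 were raised in PI replicates 7 and 8, for example apolipoprotein B-100 at 2.06 and 1.69 against -3.09 to -1.02 in the other PI arrays, so that these arrays weigh heavily in r.

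GATA-4-like was most like GATA-4 over the 23 arrays (r = 0.99), followed by acidic mammalian chitinase (L1_86990), peptide Y (L4_39425), ubiquitin carboxyl-terminal hydrolase 3 (L12_85864) and ecto-NOX disulfide-thiol exchanger 1-like (L1_32230), at 0.98 or 0.99. For GATA-4 the list after GATA-4-like held G-protein coupled receptor 39 (L12_87978), peptide Y, the ecto-NOX protein and WD repeat-containing protein 81 (L12_85196), each at 0.98. Over the deviations from the segment means, GATA-4-like was most like apolipoprotein B-100-like, partial (L1_10210, r = 0.94), chitinase (0.92), GATA-4 (0.90), the ecto-NOX protein (0.90) and meprin A subunit beta (L12_88973, 0.89), a brush border protease. GATA-4 was most like the transcription factor Sp5 (L1_67223, 0.91), GATA-4-like (0.90), WD repeat-containing protein 81 (0.90), melanotransferrin (L12_89950, 0.90) and apolipoprotein B-100-like, partial (0.89). In AI replicate 2, MI replicate 3 and all PI arrays this last probe was below the lowest signal well above background.

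These genes shared the low values of AI replicate 2 and MI replicate 3, although meprin in AI replicate 2 was low only within AI. They were picked by r with the GATA-4 probes, which were low on these arrays, so this is no independent support. Meprin had -0.73 in AI replicate 2 and -3.72 in MI replicate 3, against -1.37 to 6.81 on the other AI-MI arrays. The AI arrays other than AI replicate 2 had 3.03 to 6.81. Chitinase, which splits chitin, had 1.70 and 0.27 in AI replicate 2 and MI replicate 3 and 5.97 to 8.74 on the other AI-MI arrays. Peptide Y, a gut hormone, had -0.66 and 0.92 against 1.46 to 7.18, and Sp5 had -4.45 and -4.80 against -2.53 to 0.57. The likeness between gata5 and the GATA-4 probes was 0.87 and 0.91 over the 23 arrays but 0.12 and 0.38 over the deviations, where GATA-4-like ranked 5004 and GATA-4 ranked 1309 of 12774 probes. The deviations include the PI arrays, where both GATA-4 probes were at background. These values thus do not give a relation within AI and MI alone. At the other end, the ileal cotransporter had -0.90 with GATA-4-like and -0.85 with GATA-4 over the deviations, ranks 12770 and 12767. For the cotransporter AI replicate 2 was 9.84 log2 units above the median of the other AI arrays, so that it weighs heavily in r.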

How the data were processed

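One array was hybridised per RNA sample. The authors extracted the scans with Agilent Feature Extraction 11.5.1.1, and the deposited processed signal is an intensity, background-subtracted and detrended within the array but not scaled between arrays. The authors also deposited median pixel intensity values of each spot and its local background, and 1 table of log2 values, which by the values was scaled per array and centred on each probe. It served as an alternative, as did normexp on the median signals (no mean signals were in the columns), quantile normalization, no filter, a floor on dim signals, the methods' test, another prior, blocks, slides and single arrays left out.

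Spots marked as outliers were dropped, log2 signals of a probe averaged, and the 75th percentile subtracted (Python 3.11.15, numpy 2.4.6, pandas 2.3.3, scipy 1.17.1). The comparisons used limma 3.58.1 (lmFit, eBayes) under R 4.3.3. Tested on simulated data for AI-MI vs. PI with 12775 probes, the fit recovered 78 of 100 probes with a change of 1 log2 unit and 97 of 100 with a change of 2, and made 12 wrong calls. For AI vs. MI with 12786 probes these were 66 and 93, with 12 wrong calls. No arrays of a segment were alike enough to be copies (the smallest median difference between 2 was 0.235 log2 units). The number of arrays limits the precision, and p-values measure the spread between these samples.

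The rule for the members uses names alone, but the members and gene lists were proposed with earlier results of these data known. List levels per array use the probes with a value on all arrays, which leaves out cadherin-17 and the liver-type fatty acid-binding protein. Named genes are the 3 members, the listed genes and, for each member, the 5 named probes with the highest r. The lists hold pancreatic acinar, stomach, epithelial, smooth muscle, lymphocyte and red blood cell genes, other GATA factors, endodermal transcription factors, absorptive genes and ileal bile acid genes, all with names from the study's supplement, which names 3652 of the probes. AI and PI arrays with equal replicate numbers deviated together from their segment means (r = 0.189 to 0.590 over probes, all 8 pairs over 0.1), so that these numbers pair the arrays by the rule used here, although no source says that they mark the same fish.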

Additional observations from a re-analysis of the deposited data

Results flagged for a closer look

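A sample far from the others of its segment was looked for with Dixon's test in 24 groups (the 3 GATA probes, the 3 other GATA and cofactor probes and the 2 ileal genes in each segment), of which chance marks about 1 in 20. There were 4 such values. AI replicate 2 stood apart for GATA-4-like at -6.29, for GATA-4 at -6.09 and for the ileal sodium/bile acid cotransporter at 3.23 on the log2 scale. MI replicate 3 stood apart for gata5 at 4.59, against 5.16 or more in the other MI arrays. PI replicates 7 and 8 were not marked for gata5, as the test looks for a single value far from the rest.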

How the results depend on the processing

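The calls of the 3 GATA probes against PI kept their direction under every alternative run, and missed the threshold only within single slides: AI vs. PI within slide 1 (GATA-4-like 5.80, GATA-4 4.70) and gata5 within slide 3 (4.31 for AI vs. PI, 3.97 for MI vs. PI). Within slides 1, 2 and 3 the called probes were 1410, 3508 and 2033 for AI-MI vs. PI, 482, 3005 and 1531 for AI vs. PI and 1268, 1404 and 261 for MI vs. PI, with fewer arrays. Between AI and MI, 49 probes were called in a joint fit of the segments, 295 without AI replicate 2 and MI replicate 3, and 0 to 588 with single arrays left out (588 without AI replicate 2, 40 without MI replicate 7). With single arrays left out, the difference of gata5 (AI minus MI) ranged from -0.17 to 0.0051, that of GATA-4-like from 0.32 to 1.41 and that of GATA-4 from 0.28 to 1.10. Without AI replicate 2 the exact permutation test of AI against MI passed the threshold for both GATA-4 probes, while limma called neither. That array was the lowest of AI for both probes and was left out alone, so this pass is a description. Within slide 3 the difference of gata5 was 0.34. Relations within PI were not followed across settings, as the GATA-4 signals there were at background. The causes were not tested. With the replicate number as a block, gata5, GATA-4-like and GATA-4 differed by 5.06, 6.83 and 6.01 for AI vs. PI and 6741 probes were called against 5423, and the block changed no call of a GATA probe. Equal numbers paired 6 of 7 AI and MI arrays and 6 of 7 MI and PI arrays with r over 0.1, so that no pairing is assumed there. The median r was nevertheless 0.326 and 0.435, against -0.06 and -0.04 for unequal numbers. The tests without a block would ignore such a pairing, and AI-MI would then hold AI and MI arrays of the same fish as separate samples. With the block, gata5, GATA-4-like and GATA-4 differed by 5.17, 6.53 and 5.77 for AI-MI vs. PI (limma, adjusted p = 8.1e-09, 3.8e-08 and 1.4e-08). For AI vs. MI the differences with the block were -0.12, 0.61 and 0.53. Signal over background limits GATA-4 in PI to a bound.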

Other observations

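Probes for apolipoprotein B, the scaffold protein of chylomicrons, differed in which GATA probe they resembled, an observation made after their values had been seen. Apolipoprotein B-100 (L12_89941) and apolipoprotein B-100-like (L2_28353) had 5.15 and 1.14 in AI replicate 2, within or near the 5.08 to 6.47 and 1.12 to 1.86 of the AI-MI arrays other than AI replicate 2 and MI replicate 3, and 4.67 and 0.98 in MI replicate 3, the lowest of AI-MI. They were raised in PI replicates 7 and 8 (2.06 and 1.69, and -1.62 and -1.93). Apolipoprotein B-100-like, partial (L1_10210), had -8.81 in AI replicate 2 and -8.05 in MI replicate 3 against -5.82 to -2.40 in the other AI-MI arrays. In PI it had -8.63 and -9.31 in replicates 7 and 8 and -9.50 to -8.79 in the others. Its values in AI replicate 2, MI replicate 3 and PI lay below the lowest signal well above background on each array. They therefore have no order among themselves. The names come from matches to other species, and the sources used here do not say whether these probes read different genes.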
